A study of Mus musculus with 12 samples.

Results

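The 10 genes described here respond to glucocorticoids and were followed through 12 mouse heart libraries. They are Zbtb16, Klf9, Klf15, Fkbp5, Tsc22d3, Sgk1, Mt1, Mt2, Nr3c1 and Lcn2. They make up 10 of the 30199 genes in the deposited table, matched by gene symbol, and all were among the 18897 genes that passed the filter on low counts. The genes were chosen by name from levels and fold changes seen earlier in these same libraries. Their own differences are therefore given as a description, without p-values.

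The study sequenced poly(A) RNA from hearts of C57BL/6J mice in 4 groups of 3 libraries. They are sorafenib with PLX3397 (called both agents), sorafenib, PLX3397 and control. Sorafenib, an inhibitor of several kinases that is given to people with cancer, was administered for 28 days in the first 2 of these groups. The series concerns the part of macrophages in the heart toxicity of sorafenib. PLX3397 inhibits CSF1R, the receptor that tissue macrophages need to survive, and served as the macrophage clearance agent. The labels name no vehicle, dose, sex, age or hour of collection, and do not say that each library is a separate animal. The p-values below therefore measure only the spread between these samples, which may be technical.

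Total estimated counts per library were 61626404 to 64537365. All 10 cardiomyocyte markers were detected, and their summed level was 42012 to 51238 CPM (counts relative to library size, with TMM scaling) in hearts given both agents, 40829 to 44299 in sorafenib hearts, 35667 to 40251 in PLX3397 hearts and 35269 to 37462 in control hearts. The summed level of 15 resident macrophage markers was 89.2 to 113 CPM with both agents, 123 to 198 with sorafenib, 273 to 297 with PLX3397 and 273 to 330 in controls. In PLX3397 hearts the macrophage markers thus overlapped the control range, and 0 of the 15 were called by edgeR. PLX3397 replicate 1 lay with the controls on the first principal component. Control replicate 3 and both-agents replicate 2 stood apart by their lung and airway transcripts, which are described with Lcn2.

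Glucocorticoids such as corticosterone enter cells and bind the glucocorticoid receptor, encoded by Nr3c1, which then acts in the nucleus on genes whose regulatory regions hold glucocorticoid response elements. Targets in muscle and heart include transcription factors of the KLF family, brakes on the receptor and on inflammation, a kinase that regulates ion channels, and metal-binding proteins. Circulating corticosterone follows a daily rhythm, and several of these genes are also under the control of the circadian clock.

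Levels between genes can be compared in FPKM, which is scaled for gene length. Over the 12 libraries Mt1 had the highest mean at 39.0 FPKM, followed by Klf9 at 21.8, Klf15 at 16.5, Tsc22d3 at 14.8, Mt2 at 9.78, Sgk1 at 8.78 and Nr3c1 at 8.65 FPKM. Zbtb16 averaged 3.02 FPKM, Fkbp5 1.2 FPKM and Lcn2 0.782 FPKM. The lowest Mt1 library, at 33.5 FPKM, lay above the highest of Klf9, at 26.2 FPKM. The ranges of all other neighbours in this order overlapped. Compared within each library, Klf9 was always above Klf15 and Nr3c1 always above Zbtb16. The order of the remaining neighbours changed between libraries. Nr3c1 was the steadiest, with its highest library 1.36 times its lowest in CPM, and Zbtb16 the most variable of the 10, at 8.46 times.

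Nr3c1 (ENSMUSG00000024431, chr18:39410545-39519421, minus strand; all gene positions are from the deposited table on mm10) encodes the receptor itself. It was at 79.1, 75.3 and 74.3 CPM with both agents, at 74.6, 77.7 and 74.8 CPM with sorafenib, at 69.6, 73.7 and 79.3 CPM with PLX3397 and at 71.6, 58.2 and 61.4 CPM in controls. In TMM-scaled CPM both sorafenib-treated groups lay wholly above the controls, whose replicate 1 came close to them, and the PLX3397 libraries overlapped the controls. Over all tested genes, the 3 libraries of each group did not overlap for 35.6% in both agents versus control, 26.5% in sorafenib versus control, 22.3% in both agents versus PLX3397, 15% in PLX3397 versus control and 12.6% in both agents versus sorafenib, so such a gap is common. The log2 fold change was 0.26 ± 0.08 (SE) for both agents versus control and 0.25 ± 0.08 for sorafenib versus control, and neither was called, which here means an adjusted p under 0.05 in edgeR's quasi-likelihood test over all tested genes. On log2 of FPKM plus 0.5, which carries no TMM scaling, these differences were 0.12 and 0.12. In FPKM the groups overlapped. Control replicate 1, at 9.33 FPKM, was above every both-agents and sorafenib library, which reached 9.04 and 8.88 FPKM.

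Of 18 tested genes for the receptor's partners and cofactors, 0 were called by edgeR in sorafenib versus control and 3 were called higher with both agents versus control, a share near the 16.1% of all tested genes called in that comparison. Among them were the coactivators Ncoa2 (log2 fold change 0.56 ± 0.13, adjusted p = 0.0145) and Med1 (0.38 ± 0.11, adjusted p = 0.0308). The mineralocorticoid receptor Nr3c2, which also binds corticosterone, was at 20.4 to 25.1 CPM with both agents and 15.8 to 23.0 CPM in controls and was called in no comparison. Hsd11b1, which regenerates active corticosterone inside cells, was at 13.5 to 18.8 CPM with both agents and 13.1 to 16.9 CPM in controls and was called in none.

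Zbtb16 (ENSMUSG00000066687, chr9:48654297-48836222, minus strand), a BTB zinc-finger repressor also known as PLZF, had the widest differences of the 10 genes. It was at 38.8, 24.6 and 27.8 CPM with both agents, at 44.7, 11.4 and 18.8 CPM with sorafenib, at 6.55, 14.2 and 7.27 CPM with PLX3397 and at 5.29, 7.51 and 6.04 CPM in controls. Every library that received sorafenib was above every control library, and the lowest of them, sorafenib replicate 2, was below PLX3397 replicate 2. The log2 fold change was 2.28 ± 0.52 for both agents versus control, which was called, and 1.99 ± 0.51 for sorafenib versus control and 1.70 ± 0.51 for both agents versus PLX3397, which were not called by edgeR. The call was lost when control replicate 1, 2 or 3, or both-agents replicate 1, was left out.

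Klf9 (ENSMUSG00000033863, chr19:23141226-23168134, plus strand), a Krüppel-like factor that is a standard receptor target in many tissues, was the most regular. Its libraries were at 134, 148 and 133 CPM with both agents, 131, 126 and 120 CPM with sorafenib, 96.4, 107 and 105 CPM with PLX3397 and 90.8, 101 and 87.2 CPM in controls. The both-agents libraries lay above all others, the sorafenib libraries above all PLX3397 and control libraries, and the last 2 groups overlapped. Klf9 was called higher with both agents versus control (log2 fold change 0.57 ± 0.08), with sorafenib versus control (0.43 ± 0.08) and with both agents versus PLX3397 (0.43 ± 0.08). It was the 1 member called in both agents versus control in every fit that left out a single library. In sorafenib versus control its call was lost without control replicate 3 or sorafenib replicate 1, and in both agents versus PLX3397 without PLX3397 replicate 1.

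Klf15 (ENSMUSG00000030087, chr6:90462576-90475238, plus strand) activates amino acid breakdown in muscle and heart and restrains cardiac growth. It was at 61.4, 65.1 and 54.7 CPM with both agents, 68.5, 50.5 and 49.96 CPM with sorafenib, 49.7, 45.1 and 36.4 CPM with PLX3397 and 31.6, 50.4 and 43.1 CPM in controls. The both-agents libraries were above all PLX3397 and control libraries, while the sorafenib libraries overlapped the controls through control replicate 2. For both agents versus control the log2 fold change of 0.54 ± 0.17 was not called by edgeR with TMM scaling. It was called with DESeq2's size factors, with the DESeq2 test and in a fit to the compared groups only.

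The promoter of Klf15 is shown because it holds 3 copies of the E-box CACGTG, the motif through which CLOCK and its partner BMAL1 bind. The window is chr6:90462326-90462625 on the plus strand of GRCm38.p6 from RefSeq, 250 bases before the start site to 50 after it. E-boxes are in capitals.
Klf15 promoter: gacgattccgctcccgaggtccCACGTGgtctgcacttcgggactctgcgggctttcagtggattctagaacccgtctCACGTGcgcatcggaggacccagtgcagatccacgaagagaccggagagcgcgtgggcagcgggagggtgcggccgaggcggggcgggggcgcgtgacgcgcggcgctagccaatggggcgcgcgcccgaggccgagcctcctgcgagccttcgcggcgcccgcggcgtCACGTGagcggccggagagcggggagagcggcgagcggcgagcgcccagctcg
Counting the start base as 0, the E-boxes began at -228, -172 and -3. A CACGTG was present in 7.15% of the 32851 mouse promoter windows of the same length, searched on both strands. The middle E-box overlapped a metal response core at -169. RefSeq windows were found for 8 of the 10 genes, 15 windows in all, and none of them held a D-box, the motif of the clock output activator DBP, which 0.938% of all windows held.

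Fkbp5 (ENSMUSG00000024222, chr17:28399094-28517527, minus strand) encodes a co-chaperone that lowers the receptor's affinity for hormone, and is among the most widely used readouts of receptor activity. It was at 12.9, 10.8 and 20.3 CPM with both agents, 15.5, 8.45 and 8.57 CPM with sorafenib, 13.2, 10.5 and 13.2 CPM with PLX3397 and 10.3, 12.7 and 11.9 CPM in controls. All 4 groups overlapped, and 1 library in each sorafenib-treated group, both-agents replicate 3 and sorafenib replicate 1, stood above the rest. The log2 fold change was 0.33 ± 0.26 for both agents versus control and -0.10 ± 0.26 for sorafenib versus control. Neither was called.

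Tsc22d3 (ENSMUSG00000031431, chrX:140539528-140600659, minus strand), the glucocorticoid-induced leucine zipper that dampens inflammatory signalling, had the same 2 libraries on top. It was at 51.9, 62.1 and 104 CPM with both agents, 94.8, 58.0 and 79.3 CPM with sorafenib, 49.3, 65.8 and 57.5 CPM with PLX3397 and 58.0, 72.4 and 87.0 CPM in controls. Both-agents replicate 3 and sorafenib replicate 1 were the highest libraries, and all groups overlapped. Its log2 fold change was 0.01 ± 0.27 for both agents versus control and 0.10 ± 0.27 for sorafenib versus control, and Tsc22d3 was called in no comparison.

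Sgk1 (ENSMUSG00000019970, chr10:21882184-21999893, plus strand), a serum- and glucocorticoid-regulated kinase that acts on ion channels and cell survival, differed in the other direction. It was at 24.4, 31.0 and 42.9 CPM with both agents, 44.6, 38.7 and 48.2 CPM with sorafenib, 42.0, 55.1 and 49.4 CPM with PLX3397 and 47.7, 71.8 and 62.9 CPM in controls. The 3 both-agents libraries were below all 3 controls, and the sorafenib libraries overlapped the controls only through sorafenib replicate 3. The log2 fold change was -0.89 ± 0.20 for both agents versus control, which was called and was lost without control replicate 3, and -0.47 ± 0.20 for sorafenib versus control, which was not.

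Sgk1 is the member whose promoter windows held a complete palindromic glucocorticoid element, the 6-base motif AGAACA followed 3 bases later by its reverse complement, TGTTCT. The window belongs to an alternative start inside the gene, at chr10:21993640-21993939 on the plus strand of GRCm38.p6, from RefSeq. Capitals mark these 6-base motifs and the E-box.
Sgk1 promoter: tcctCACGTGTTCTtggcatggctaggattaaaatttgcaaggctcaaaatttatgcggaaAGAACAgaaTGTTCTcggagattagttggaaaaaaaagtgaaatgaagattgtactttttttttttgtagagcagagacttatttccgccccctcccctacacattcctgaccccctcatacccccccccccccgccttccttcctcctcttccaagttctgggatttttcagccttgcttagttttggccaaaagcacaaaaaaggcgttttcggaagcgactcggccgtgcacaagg
The palindrome spans -189 to -175 and occurred in 3 of 32851 windows, 0.00913% of them. A further TGTTCT at -242 overlaps an E-box at -246. At least 1 copy of either 6-base motif was in 19.0% of all windows, and among the 8 genes with windows copies were found for Sgk1 and Tsc22d3. Both of these genes have several windows, while each of the others has a single window.

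**Figure D1:**
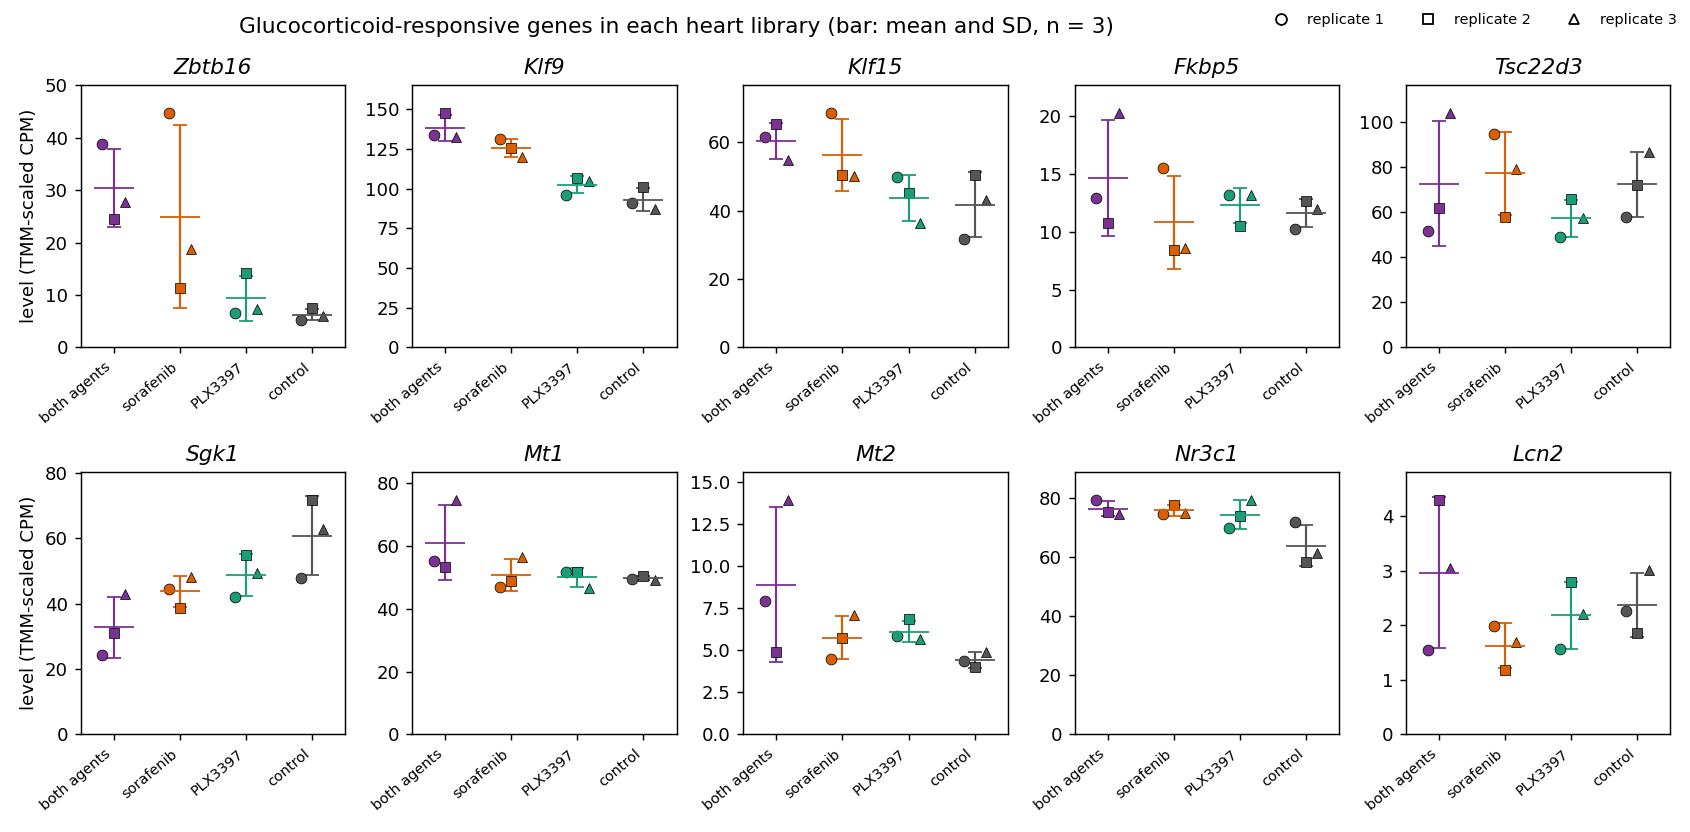
TMM-scaled CPM of the 10 genes in each library, a panel per gene, with both agents, sorafenib, PLX3397 and control from left to right, the replicates as circle, square and triangle, and the group mean and SD (n = 3) as a bar. Zbtb16 and Klf9 are higher in every library that received sorafenib than in every control, Sgk1 is lower with both agents, and Fkbp5 and Tsc22d3 overlap in all groups.

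Mt1 (ENSMUSG00000031765, chr8:94179082-94180327, plus strand) and Mt2 (ENSMUSG00000031762, chr8:94172664-94173568, plus strand) encode metallothioneins, small cysteine-rich proteins that bind zinc and copper, and lie next to each other. Mt1 was at 55.3, 53.4 and 74.8 CPM with both agents, 47.0, 48.8 and 56.6 CPM with sorafenib, 51.9, 51.9 and 46.7 CPM with PLX3397 and 49.6, 50.5 and 49.3 CPM in controls. Mt2 was at 7.91, 4.88 and 14.0 CPM with both agents, 4.49, 5.71 and 7.08 CPM with sorafenib, 5.87, 6.84 and 5.65 CPM with PLX3397 and 4.34, 4.0 and 4.93 CPM in controls. Both-agents replicate 3 was the highest library for both genes. In TMM-scaled CPM both-agents replicate 2 was within the control range for Mt2 but above it for Mt1. In FPKM the Mt1 level of both-agents replicate 2 was 36.6, below the 39.8, 38.1 and 37.9 of the controls. Both-agents replicate 1, at 39.0 FPKM, lay within the control range for Mt1.

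Mt2 was called higher with both agents versus control (log2 fold change 1.01 ± 0.29) although the groups overlapped, and that call was lost without any single control library, without both-agents replicate 1 and without both-agents replicate 3. Mt1 was 0.30 ± 0.12 higher on the log2 scale in the same comparison and was not called. Its groups did not overlap in CPM, as for 35.6% of all tested genes, but they overlapped in FPKM. Over the 12 libraries the log2 levels of the pair had a Pearson r of 0.87 and a Spearman rho of 0.62. Without the 2 libraries farthest from the median of Mt2 the r was 0.66. Mt2 overlaps the opposite-strand gene Gm45774, whose mean count was 33 against 393 for Mt2, and the sources used here do not state whether reads were counted by strand.

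The promoters of this pair are shown for their metal response cores, TGCACNC in 1 form and TGCGCNC in the other, through which the zinc sensor MTF1 acts on metallothionein genes. The windows are chr8:94178839-94179138 for Mt1 and chr8:94172368-94172667 for Mt2, plus strand of GRCm38.p6, from RefSeq, with the cores in capitals on either strand.
Mt1 promoter: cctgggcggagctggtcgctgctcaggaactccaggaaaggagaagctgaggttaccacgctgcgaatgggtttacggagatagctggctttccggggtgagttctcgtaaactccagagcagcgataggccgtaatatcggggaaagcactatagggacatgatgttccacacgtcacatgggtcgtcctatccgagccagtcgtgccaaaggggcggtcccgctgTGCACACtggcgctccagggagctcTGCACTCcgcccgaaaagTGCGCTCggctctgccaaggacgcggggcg
Mt2 promoter: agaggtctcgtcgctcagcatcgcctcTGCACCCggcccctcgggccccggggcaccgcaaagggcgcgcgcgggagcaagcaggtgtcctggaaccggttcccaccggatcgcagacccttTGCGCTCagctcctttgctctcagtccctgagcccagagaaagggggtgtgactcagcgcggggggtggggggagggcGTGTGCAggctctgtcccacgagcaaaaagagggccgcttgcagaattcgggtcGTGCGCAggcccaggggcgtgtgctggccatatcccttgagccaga
Mt1 had 3 cores, at -23, 2 and 20, and Mt2 had 4, at -223, -128, -50 and 4. At least 1 core was in 25.7% of all windows. Among 12 genes of metal handling, Slc30a1, the zinc exporter that is another MTF1 target, was called higher with both agents versus control, beside 16.1% of all genes. It was at 22.3, 23.0 and 20.4 CPM with both agents and 15.3, 12.97 and 14.6 CPM in controls, without overlap, as for 35.6% of all tested genes. Its log2 fold change was 0.62 ± 0.14 (edgeR adjusted p = 0.0102). With sorafenib it was at 15.9 to 21.0 CPM and with PLX3397 at 15.6 to 21.8 CPM, also above the controls. The other 11 were not called in any comparison. With both agents versus control the median log2 fold change of the 12 was 0.01, against -0.02 over all genes. Mtf1 itself was at 12.2 to 14.1 CPM with both agents and 10.4 to 11.9 CPM in controls.

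Lcn2 (ENSMUSG00000026822, chr2:32384633-32387797, minus strand), the secreted iron-siderophore carrier lipocalin-2, was the least abundant, with 69 to 249 counts per library. It was at 1.53, 4.30 and 3.04 CPM with both agents, 1.99, 1.18 and 1.69 CPM with sorafenib, 1.56, 2.79 and 2.20 CPM with PLX3397 and 2.25, 1.86 and 3.01 CPM in controls. All groups overlapped, and Lcn2 was called in no comparison. Its log2 fold change was 0.32 ± 0.35 for both agents versus control and 0.87 ± 0.35 for both agents versus sorafenib.

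The 3 genes whose levels were most like Lcn2 over the 12 libraries were Scgb3a1, an airway secretoglobin, with an r of 0.90, Gprc5a, a receptor abundant in lung epithelium, with 0.89, and Cxcl15, a chemokine of lung epithelium, with 0.85. A list of 12 lung and airway genes was then drawn up after these values were seen, and all 12 passed the filter. It holds Scgb3a1 and Cxcl15. Their summed level was 40.2, 303 and 73.3 CPM in both-agents replicates 1, 2 and 3, 50.8, 23.6 and 43.2 CPM in the sorafenib libraries, 59.7, 62.1 and 69.6 CPM in the PLX3397 libraries and 36.4, 31.8 and 257 CPM in control replicates 1, 2 and 3. Both-agents replicate 2 and control replicate 3 stood far above the other 10 libraries, which did not exceed 73.3 CPM.

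The surfactant gene Sftpc alone was at 102 CPM in both-agents replicate 2 and 85.6 CPM in control replicate 3. The highest Lcn2 level within both of these groups was in the same 2 libraries. The r between Lcn2 and the summed lung and airway level was 0.83 (rho 0.78), and 0.70 without those 2 libraries. Without them the log2 fold change of Lcn2 was 0.15 for both agents versus control. The part of lung or airway RNA in the Lcn2 values was not tested. In bulk tissue, fewer cells of a type and less RNA per cell cannot be told apart.

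Lcn2 is also abundant in neutrophils and is induced in the acute phase. The summed level of 11 tested neutrophil markers was 8.30 to 9.45 CPM with both agents, 3.17 to 8.39 with sorafenib, 5.59 to 10.5 with PLX3397 and 5.80 to 8.27 in controls, and 0 were called by edgeR in any comparison. Of 20 acute-phase genes and Lcn2 inducers, 2 were called higher and 3 lower with both agents versus control, beside 16.1% of all genes. The oncostatin M receptor Osmr rose (log2 fold change 0.98 ± 0.15, adjusted p = 0.00128), as did the serpin Serpina3n (0.68 ± 0.21, adjusted p = 0.041). The metalloreductase Steap4 fell by 0.84 ± 0.12 on the log2 scale (adjusted p = 0.000818), the lipocalin-2 receptor Slc22a17 by 0.96 ± 0.21 (adjusted p = 0.00989) and the cytokine Il1b by 1.46 ± 0.46 (adjusted p = 0.0456). Slc22a17 was at 7.84, 6.42 and 6.77 CPM with both agents, all below the 13.4, 13.3 and 14.0 CPM of the controls. The sorafenib libraries, at 7.70 to 8.88 CPM, and the PLX3397 libraries, at 5.53 to 12.1 CPM, were also below the controls.

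Read together by comparison, the 10 genes differed in number and direction of calls. With both agents versus control, edgeR called 3 of them higher (Zbtb16, Klf9 and Mt2) and 1 lower (Sgk1), beside 16.1% of all genes called, 1507 higher and 1539 lower. On FPKM, limma called 515 higher and 2862 lower. In sorafenib versus control Klf9 was called, beside 2.65% of all genes (284 higher and 216 lower, against 96 and 758 by limma on FPKM), and in both agents versus PLX3397 Klf9 again, beside 3.23% (190 higher and 421 lower, against 74 and 545 by limma on FPKM). In PLX3397 versus control, in both agents versus sorafenib and in the interaction, the difference between the sorafenib effects with and without PLX3397, 0 members and 0% of all genes were called.

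At an unadjusted p under 0.05, 2325 of all genes passed in PLX3397 versus control, 1216 in both agents versus sorafenib and 1099 in the interaction, against 1, 3 and 0 of the 10 members. DESeq2 called 102, 65 and 5 genes in these 3 comparisons, and limma on log2 of FPKM plus 0.5 called 2, 0 and 0, with 0 members in each. Because the members were chosen from these libraries, nothing is read from their counts.

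The median log2 fold change of the members was 0.33 with both agents versus control, against -0.02 over all tested genes, and 9 of the 10 were above 0. In both agents versus PLX3397 it was 0.38, against -0.00 over all genes. In sorafenib versus control it was 0.17, against -0.02, and 7 of the 10 were above 0. In PLX3397 versus control it was 0.08, against -0.01, and 7 of the 10 were above 0. In both agents versus sorafenib it was 0.20, against -0.00, and 8 of the 10 were above 0. Some of the values above 0 were very small, such as Tsc22d3 with both agents versus control (0.01 ± 0.27) and Mt1 in sorafenib versus control (0.03 ± 0.12). These comparisons share libraries with each other and are not independent.

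**Figure D2:**
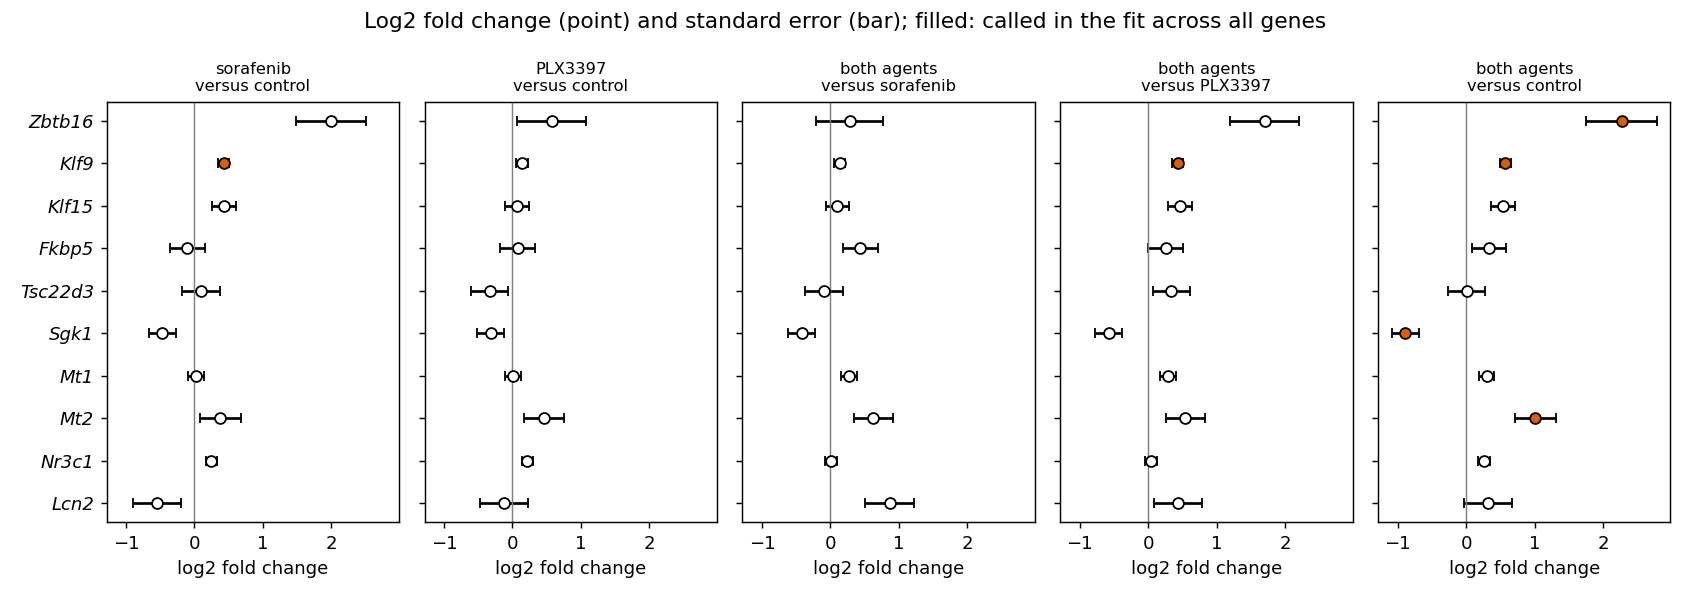
Log2 fold change (point) and standard error (bar) of the 10 genes in 5 comparisons, from the edgeR fit to all 12 libraries, with filled points for called genes. With both agents versus control the values run from -0.89 for Sgk1 to 2.28 for Zbtb16, and in PLX3397 versus control no point is filled.

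Several members varied between single libraries of a group. Both-agents replicate 3 was the highest of its group for 5 of the 10 members (Fkbp5, Tsc22d3, Sgk1, Mt1 and Mt2) and for 14 of 30 further glucocorticoid targets, 46.7%, against 35.7% of all tested genes. Sorafenib replicate 1 was the highest of its group for 6 of the 10 and for 16 of the 30, 53.3%, against 32.9% of all tested genes. Within groups, Tsc22d3 and Sgk1 varied together, with an r of 0.86 between deviations from the group means, against 0.40 over the uncentred libraries.

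PLX3397 replicate 2 was the highest of its group for 6 members and 17 of the 30 targets (28.4% of all tested genes), and control replicate 2 for 6 members and 10 targets (27% of all tested genes).

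Of 9 tested adipocyte markers, 7 were highest within their group in both-agents replicate 3 and 7 in sorafenib replicate 1. In PLX3397 replicate 2 they numbered 2 of 9 and in control replicate 2 they numbered 0 of 9. Of 10 fibroblast markers, 10 were highest within their group in sorafenib replicate 1 and 5 in both-agents replicate 3. Their summed level was 2168, 1831 and 2603 CPM in both-agents replicates 1, 2 and 3 and 3359, 1848 and 2775 CPM in sorafenib replicates 1, 2 and 3.

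Adiponectin (Adipoq) was at 0.0675, 0 and 1.09 CPM in both-agents replicates 1, 2 and 3 and at 1.75, 0.154 and 0.879 CPM in sorafenib replicates 1, 2 and 3. Cfd, the adipocyte protease adipsin, was at 0.658, 0.932 and 4.67 CPM in the both-agents replicates and at 7.35, 1.01 and 4.33 CPM in the sorafenib replicates. The summed level of the 9 markers, which Fabp4 and Plin4 dominate, was 473 to 544 CPM with both agents, 428 to 545 with sorafenib, 400.2 to 453 with PLX3397 and 429 to 551 in controls. Adipoq was at 0 in both-agents replicate 2 and Plin1 in both-agents replicate 1. The part of fat tissue or fibroblasts in the levels of Fkbp5 and Tsc22d3 was not tested.

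A list of 30 further targets of the receptor, none of them among the 10 members, was examined. Like the other gene lists, it was chosen with earlier results of these data known, so its calls are not independent of them. With both agents versus control 5 were called higher and 4 lower, beside 16.1% of all genes, with a median log2 fold change of -0.13 against -0.02 over all genes and 14 of 30 above 0. The median was 0.15 in sorafenib versus control, with 18 of 30 above 0, and 0.10 in both agents versus PLX3397, with 16 of 30 above 0. It was -0.08 in PLX3397 versus control and -0.07 in both agents versus sorafenib. In sorafenib versus control 3 were called higher and 1 lower, beside 2.65% of all genes. In both agents versus PLX3397 2 were called higher and 1 lower, beside 3.23% of all genes. In the other comparisons 0 were called, beside 0% of all genes. At an unadjusted p under 0.05, 6, 4 and 3 passed in PLX3397 versus control, both agents versus sorafenib and the interaction. DESeq2 called 1, Foxo3, in both agents versus sorafenib and 0 in the other comparisons without a call, as did limma in all 3.

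Among the genes called higher, Foxo3, a FOXO transcription factor, was at 101, 83.1 and 88.2 CPM with both agents, 71.6, 68.0 and 66.3 CPM with sorafenib, 45.1, 55.9 and 51.4 CPM with PLX3397 and 42.2, 43.7 and 42.7 CPM in controls. The 4 groups did not overlap at all. Its log2 fold change was 1.08 ± 0.09 for both agents versus control (adjusted p = 3.58e-05), 0.68 ± 0.09 for sorafenib versus control (adjusted p = 0.00413) and 0.84 ± 0.09 for both agents versus PLX3397 (adjusted p = 0.000336).

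Pik3r1, the regulatory subunit of PI3-kinase, rose by 0.96 ± 0.14 with both agents versus control (adjusted p = 0.0013). Fbxo32, the muscle ubiquitin ligase atrogin-1 and a FOXO target, rose by 0.53 ± 0.10 (adjusted p = 0.00435), the stress protein gene Sesn1 by 0.47 ± 0.10 (adjusted p = 0.00618) and glutamine synthetase, Glul, by 0.43 ± 0.11 (adjusted p = 0.018). Pik3r1 and Fbxo32 were also called higher in sorafenib versus control, at 0.65 ± 0.14 (adjusted p = 0.0343) and 0.47 ± 0.10 (adjusted p = 0.0291), together with Foxo3. Cdkn1a was called lower there. Without control replicate 2 or 3, or without sorafenib replicate 1 or 2, Foxo3 was the 1 target called.

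Of the genes called lower with both agents versus control, Cdkn1a, the cell cycle inhibitor p21, fell by 1.5 ± 0.24 (adjusted p = 0.00287) and was at 7.08, 11.5 and 11.2 CPM, against 22.9, 27.7 and 33.9 CPM in controls. With sorafenib it was at 9.05 to 16.9 CPM and with PLX3397 at 16.1 to 18.8 CPM, also below the controls. Cdkn1c, a related inhibitor, fell by 0.45 ± 0.11 (adjusted p = 0.0135). Dusp1, the MAP kinase phosphatase, fell by 0.75 ± 0.17 (adjusted p = 0.013), and Errfi1, a feedback inhibitor of the EGF receptor, by 1.0 ± 0.28 (adjusted p = 0.0349). All values are on the log2 scale.

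Other genes often used to read receptor activity were called in no comparison. Per1 was at 26.8 to 35.3 CPM with both agents, 19.3 to 35.7 with sorafenib, 9.33 to 24.6 with PLX3397 and 18.4 to 27.2 in controls. Cebpd, Ddit4, Pdk4, Angptl4 and Hif3a were not called either. Ddit4, an inhibitor of mTORC1, was at 10.3, 13.2 and 32.7 CPM in the both-agents replicates, and its highest library was again replicate 3. Hif3a was at 1.42, 1.09 and 0.827 CPM with both agents and 2.17, 0.652 and 0.879 CPM with sorafenib, all above the 0.458, 0.477 and 0.594 CPM of the controls.

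**Figure D3:**
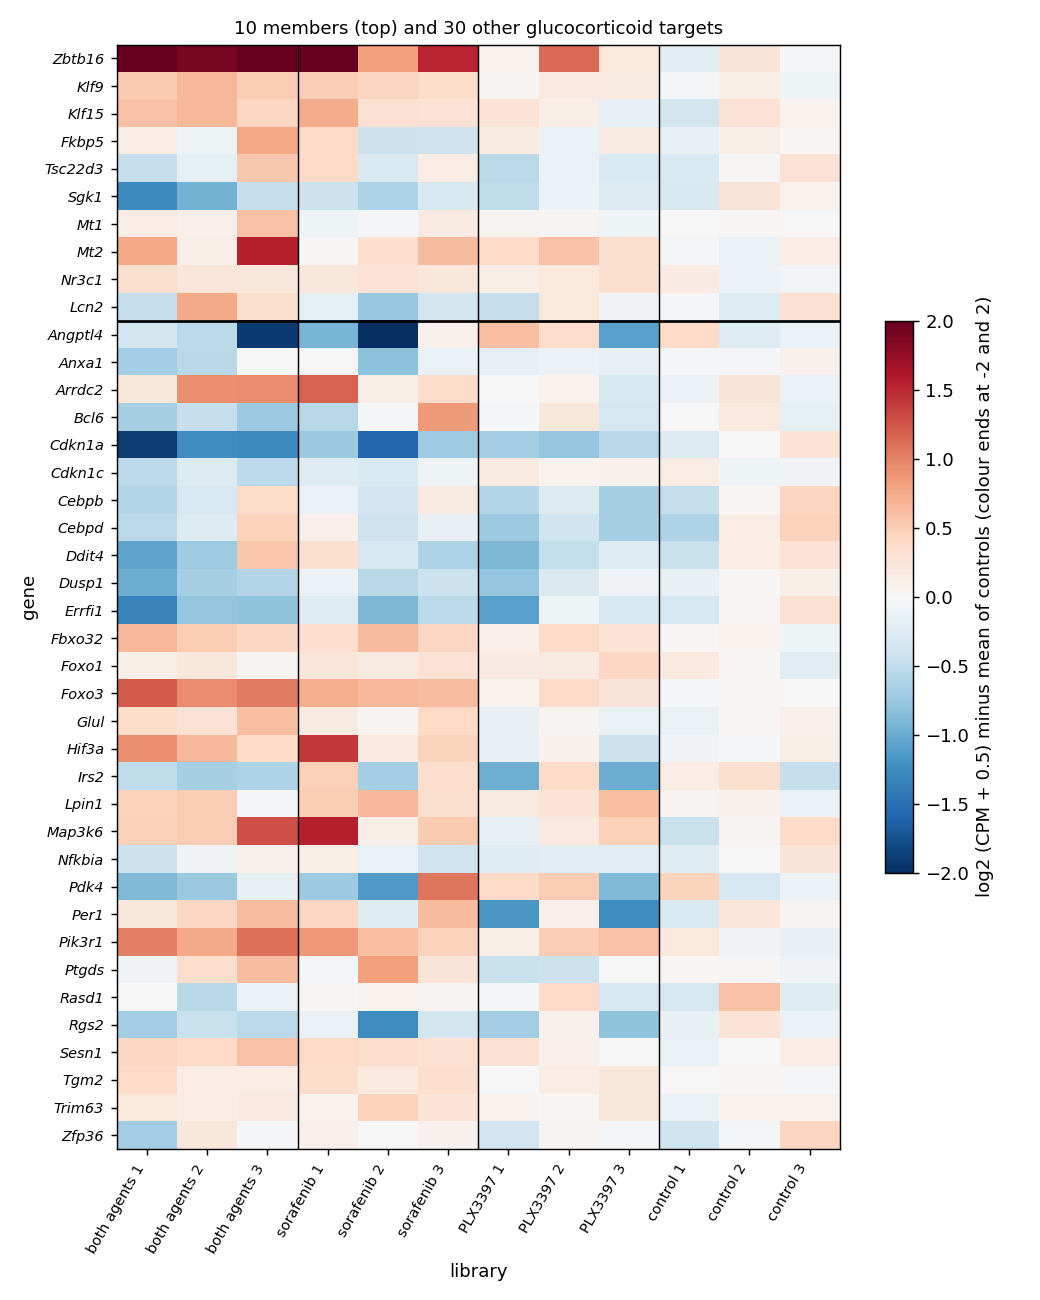
Log2 of CPM plus 0.5 minus the mean of the controls for the 10 members (above the line) and 30 further glucocorticoid targets (below it), a column per library in the order both agents, sorafenib, PLX3397 and control. Foxo3 and Pik3r1 are high and Cdkn1a and Errfi1 low in the both-agents columns, while Pdk4, Angptl4 and Ddit4 differ between libraries of the same group.

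Klf9 was set beside the circadian clock, since it is a known output of it. Of 18 clock genes, 11 were called higher and 3 lower with both agents versus control, 10 and 2 in sorafenib versus control, and 10 and 3 in both agents versus PLX3397, beside 16.1%, 2.65% and 3.23% of all genes. Dbp, a clock output activator, was at 154, 114 and 83.6 CPM with both agents, 81.1, 73.2 and 73.6 CPM with sorafenib, 26.2, 32.9 and 22.7 CPM with PLX3397 and 19.3, 28.3 and 20.5 CPM in controls, with every library given sorafenib above every library without it. Arntl, which encodes BMAL1, fell by 2.54 ± 0.29 on the log2 scale with both agents versus control (adjusted p = 0.000386).

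Nr1d2, the clock repressor REV-ERB beta, was among the 3 genes most like Klf9 among 9938 genes, with an r of 0.97 (rho 0.96), after Srp54c, a signal recognition particle gene, at 0.97 and before Isoc1 at 0.96. Within groups the r of Klf9 with Nr1d2 was 0.55, so much of the likeness lay between groups. The labels do not give the hour at which hearts were collected, and its part in these values was not tested.

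The 3 genes most like Zbtb16 were Tns2, a focal adhesion protein gene (r = 0.97), Tmem164 (0.94) and the transporter Abcg2 (0.94). For Tns2 the r was 0.86 within groups and 0.96 without the 2 libraries farthest from its median. With both agents versus control Tns2 rose by 0.57 ± 0.11 on the log2 scale (adjusted p = 0.00489), much less than Zbtb16. Zbtb16 and Klf9 had an r of 0.89 (rho 0.90) over the 12 libraries and 0.36 within groups. Fkbp5 was most like Fam122b (0.83), Ppp1r13b (0.82) and Lrrc75a (0.80), and Mt2 most like Bclaf1 (0.91), Pnpla7 (0.91) and H1f2 (0.90). All these values describe 12 libraries that share their 4 groups.

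**Figure D4:**
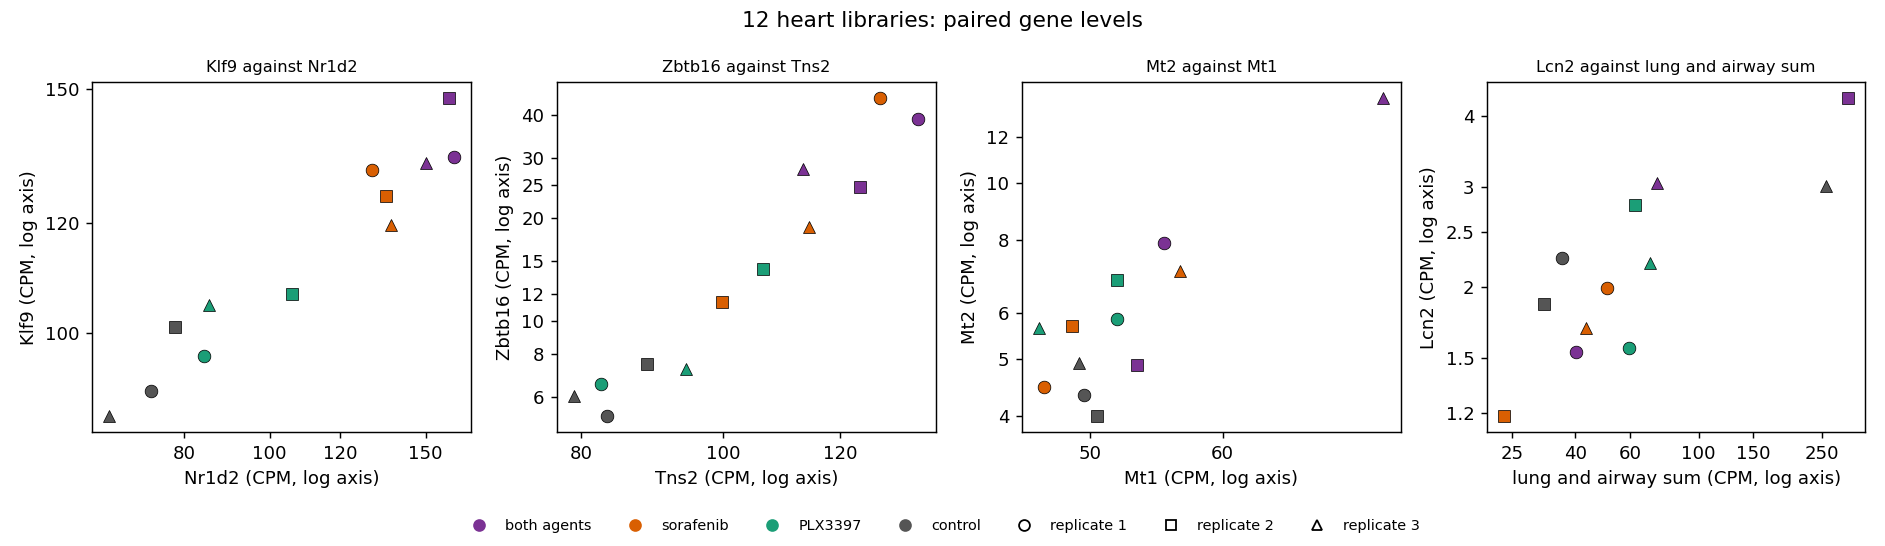
Levels of gene pairs in CPM over the 12 libraries on log axes, coloured by group and shaped by replicate: Klf9 against Nr1d2, Zbtb16 against Tns2, Mt2 against Mt1, and Lcn2 against the summed level of 12 lung and airway genes. The lung and airway sums of 303 and 257 CPM belong to both-agents replicate 2 and control replicate 3.

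Klf15 is known to drive breakdown of branched-chain amino acids. A list of 21 genes held 18 of that breakdown together with Prodh, which acts on proline, Gpt, which acts on alanine, and Kcnip2, a subunit of the transient outward potassium channel under Klf15 control. Of the 21, 6 were called higher and 0 lower with both agents versus control, beside 16.1% of all genes, with a median log2 fold change of 0.11. Aldh6a1, which acts on valine, was at 286, 270 and 305 CPM with both agents and 209, 210 and 178 CPM in controls (log2 fold change 0.53 ± 0.08, adjusted p = 0.00159). With sorafenib it was at 231 to 245 CPM and with PLX3397 at 213 to 235 CPM, also above the controls. Dbt, a subunit of the branched-chain dehydrogenase, rose by 0.66 ± 0.12 (adjusted p = 0.00373) and was also called in sorafenib versus control at 0.53 ± 0.12 (adjusted p = 0.0362). Ppm1k, the phosphatase that activates that dehydrogenase, rose by 0.52 ± 0.13 (adjusted p = 0.0172). Pcca, Prodh and Dld were the other 3. Kcnip2 and Bcat2, the first enzyme of branched-chain breakdown, were called in no comparison.

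The summed cardiomyocyte markers were also higher with both agents, as given above, and 6 of 10 were called higher with both agents versus control, while 13 of 15 macrophage markers were called lower, beside 16.1% of all genes. The part of cell composition in the Klf9, Klf15 and amino acid gene values was not tested. Among 14 immediate early genes, which respond to stress and handling, 0 were called higher and 6 lower with both agents versus control, beside 16.1% of all genes, with a median log2 fold change of -0.88. Egr3, a transcription factor of this class, fell by 1.87 ± 0.29 on the log2 scale (adjusted p = 0.0014).

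Of 22 tested paralogues of the members, Klf7 was called higher with both agents versus control (log2 fold change 0.47 ± 0.14, adjusted p = 0.0328) and Fkbp8 lower (-0.25 ± 0.07, adjusted p = 0.0326), beside 16.1% of all genes, and 0 were called by edgeR in the other comparisons.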

How the data were processed

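Poly(A) RNA of 12 mouse heart samples was sequenced, 3 libraries in each of 4 groups taken from the sample titles. The deposited table gave an estimated count and an FPKM value per gene and library. The submitters' processing notes name DESeq2, edgeR and mm10. Which aligner and counting program the authors ran is not stated there. Estimated counts, as deposited, are whole, but low values piled up at 4 (12143 values, against 5303 at 3 and 3364 at 5), so they may not count single fragments. The deposited FPKM values were scaled by the authors for length and library size, per the file headers. They carry no TMM scaling.

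Counts were fitted in R 4.3.3 with edgeR 4.0.16: filterByExpr (minimum count 10, total 15), TMM scaling and the quasi-likelihood test with robust dispersions, all 12 libraries entering as 4 group means. Genes with a Benjamini-Hochberg adjusted p under 0.05 over all 18897 tested genes were called, two-sided. The depth of each library and the spread between libraries both enter that test. Alternatives used limma 3.58.1, DESeq2 1.42.0 and other filters and scalings. The model was tested on simulated counts.

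The members and gene lists were chosen with earlier results of these data known. Named genes are the members, 16 genes fixed by name, up to 4 called genes per list and comparison with the smallest p, and the 3 genes nearest by r to Zbtb16, Fkbp5, Klf9, Mt2 and Lcn2 among genes averaging 1 FPKM or more. Adipoq, Cfd, Plin1, Fabp4, Plin4, Sftpc, the lung and airway list and called genes beyond the 4 were named after their values were seen. Promoter windows came from RefSeq on GRCm38.p6, the patch release of mm10. The values of 1 called gene are not reported here.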

Additional observations from a re-analysis of the deposited data

How the results depend on the processing

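The members had 1370 log2 fold changes under the alternatives. Of these, 1345 differed from the main fit by less than the pooled SD within the compared groups, and 25 moved further. Of the values called in the main fit, 0 changed sign. Direction was not checked for values without a call. The counts of calls are not among these values and are given next. DESeq2 called 3 members in sorafenib versus control (Zbtb16, Klf9 and Nr3c1) and 3 in both agents versus PLX3397 (Zbtb16, Klf9 and Sgk1), against 1 in each by edgeR. Over all tested genes DESeq2 called 1739 and 1212 in these comparisons, against 500 and 611 by edgeR. Among the 30 further targets DESeq2 called 7 in sorafenib versus control, against 4, and 8 in both agents versus PLX3397, against 3. In both agents versus sorafenib it called 1 target, against 0, beside 65 of all genes, against 0. In sorafenib versus control limma called 2 targets on log2 of FPKM plus 0.5 and 2 on FPKM plus 1, beside 854 and 958 of all genes. Leaving out both-agents replicate 2 and control replicate 3 together was an alternative chosen after seeing the data. That fit called 2 members (Klf9 and Mt2) in both agents versus control, beside 664 of all genes. In sorafenib versus control it called 0 members and 1 target, beside 24 of all genes. Leaving out single libraries gave 1 to 6 members in both agents versus control, 0 to 2 in both agents versus PLX3397 and 0 to 2 in sorafenib versus control. The same fits gave 7 to 10, 1 to 5 and 1 to 6 targets, and 0 to 1 in PLX3397 versus control. Over all genes they gave 1261 to 3595, 177 to 642 and 27 to 1422 calls, and 0 to 578 in PLX3397 versus control. The causes were not tested.

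Replicate numbers showed no sign of pairing the samples, as the deviations of same-numbered libraries correlated between -0.102 and 0.064. Such values cannot exclude a weak pairing, and the labels state none. With the replicate block 2 targets were called in sorafenib versus control, against 4, and no count of members changed. Over all genes, sorafenib versus control gave 500 calls, against 221 with the block, 772 with a filter of 1 CPM in 3 libraries, 912 with counts divided by 4, 854 and 958 by limma on FPKM plus 0.5 and plus 1, 1739 by DESeq2, and 24 without the 2 libraries together. DESeq2 called 1212 in both agents versus PLX3397, against 611. Without the 2 libraries together, 664 genes were called in both agents versus control, against 3046. Leaving out single libraries gave 27 to 1422 calls in sorafenib versus control, 177 to 642 in both agents versus PLX3397, 1261 to 3595 in both agents versus control, and up to 578 in PLX3397 versus control (without PLX3397 replicate 1). At 69 to 249 counts per library, Lcn2 is the member whose values depth limits most.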
